A study of Rattus norvegicus with 6 samples.

Results

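REST binding was mapped at 1775 sites in quiescent and at 778 sites in proliferating adult rat hippocampal neural stem cells, and the 322 sites described here were among the stronger sites of the quiescent cells but had no called counterpart in the proliferating cells. They were chosen by measured values, as sites with more than 15 mean normalized tags in the quiescent condition and no site of the proliferating condition with its centre within 50 bp on the same chromosome, after one-to-one pairing with the closest site first. Of all 1775 sites of the quiescent cells, 57.4% had no such counterpart, and of the 1034 with more than 15 tags, 31.1% had none. The remaining 712 sites over 15 tags had a counterpart and are called paired sites below. As both the tags and the missing counterpart chose the 322 sites, these values and the differences from the paired sites are given as descriptions, without a test.

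The cells were HCN cells, a line of hippocampal neural stem cells derived from the adult rat brain and grown as an adherent monolayer at multiple passages. Cells in FGF2 alone proliferated (TAP, transit-amplifying progenitor condition), and cells in FGF2 with BMP4 were quiescent (iQNP, induced quiescent neural progenitor condition), with no genetic change in either. Chromatin of each condition was precipitated once with a commercial anti-REST antibody and once with a homemade anti-REST antibody mix, with 1 input library per condition, so the 2 REST libraries of a condition differed in antibody and the antibodies served as the replicates. The tables number the libraries without naming the antibodies, and the libraries were matched to them by that number. If the numbers were exchanged, commercial and homemade would change places in every comparison below. The tables hold only peaks that both antibodies found. Tags are reads placed at a site and are given per 10000000, and the libraries held 25.2 to 29.8 units of 1000000 tags.

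REST is a zinc finger repressor that silences neuronal genes outside mature neurons. It binds RE1, a conserved DNA element made of a left and a right half-site, and recruits the corepressors CoREST and Sin3 with histone deacetylases. In adult hippocampal stem cells REST is known for keeping the progenitor pool from precocious activation and differentiation. Genes commonly repressed by REST encode ion channels, transmitter receptors, vesicle proteins and the microRNA miR-124. Housekeeping promoters that lie in CpG islands, by contrast, are active in nearly all cells and are commonly driven by factors that read short CpG-containing elements.

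The sites without a TAP counterpart fell into 2 sets by place, which differed in the balance of the antibodies. The first comprised 82 sites at promoters, the strongest of them at LOC687565, Rbm39 and Mdh2, where the homemade antibody mostly gave more tags than the commercial antibody. The second comprised 240 sites away from annotated promoters, at which the commercial antibody mostly gave more tags, as it did at the paired sites.

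Promoter letters that were frequent in the first set and not found in the matched promoters of paired sites are shown first. Of the 82 genes with a promoter site, 72 could be matched by gene identifier to a promoter in RefSeq (GRCr8, from 250 bases before to 50 bases after the start), and 49 of these 72 (68.1%, Wilson 95% interval 56.6 to 77.7) held the letters TCTCGCGA on either strand. The letters were chosen after these promoters had been seen, so their share is a description. These are the core of a palindromic CpG-containing element, TCTCGCGAGA, that is known from housekeeping promoters and is recognised by the factor BANP. The palindrome was present in full at 38 of the 72. The 12 genes with the most tags among those holding the letters follow on the gene's own strand, with the matching letters in capitals:
LOC687565 (Denr): cacgtaggctTCTCGCGAcatccgccta
Rbm39: ccgggcagttTCTCGCGAGAgcccgtgctg
Mdh2: gccgagcctgTCTCGCGAGAtttggtgccg
Atp5f1: cttttcctctTCTCGCGAtagggggagg
Scamp5: gtgccttcctTCTCGCGAgcactagtgg
Psmd5: ctctctcagaTCTCGCGAGActccgggacg
Mapk14: gtgtctctctTCTCGCGAGAtcttcccgtc
Lamp1: gccggcgggcTCTCGCGAGAccctcggctc
Dctn2: cctgctcctgTCGCGAGActtcctgctc
Mad1l1: ttttctcagaTCTCGCGAGAccctcgcgga
Uhrf2: cccgcgtggaTCTCGCGAGAtccgggttgg
Rps28: ctgcgtgcggTCTCGCGAGAgcggaagtga

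In GRCr8 the stretches of Rbm39 and Mdh2 lie at chr3:165156315-165156344 and chr12:26543872-26543901, both on the minus strand. Those of Psmd5 and Mapk14 lie at chr3:38548514-38548543 on the minus strand and chr20:6751202-6751231 on the plus strand. The flanking bases differed from gene to gene, and the capitals are what the promoters shared. A site was also found at the promoter of Banp itself, which was chosen for mention after its values were seen:
Banp: ctgctgcttcTCTCGCGAggacggacgc

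None of the 47 matched promoters of paired promoter sites held these letters (upper Wilson limit 7.56%), nor did any of 48 matched promoters of TAP sites (upper limit 7.41%). The paired promoter sites numbered 63 and those of TAP 64, largely at the same promoters, so these are not 2 separate observations. Among all 27457 rat genes with a promoter sequence, 265 (0.97%) held them, and among the 10379 genes whose promoter had a CpG ratio above 0.6, as CpG islands do, 2.41% did. A promoter site of the iQNP table was present at 87 of these 265 genes (32.8%), and none of the 87 had a TAP counterpart. The 87 are the 49 genes above and the 38 of weaker sites below, so this restates the absence at paired promoters. Most promoter sites lacked a counterpart whatever their letters: of 262 in iQNP, 82 stronger and 117 weaker ones had none. Promoter sites of 15 tags or fewer without a counterpart held the letters at 38 of 99 matched genes (38.4%). The letters were therefore shared by stronger and weaker promoter sites without a counterpart, and were found at none of the 47 matched promoters of sites over 15 tags with one.

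The position of the element was close to that of the site. Over the 49 genes the copy nearest to the site lay a median of 50 bases upstream of the start in GRCr8, with quartiles of 90 and 28 bases upstream. The sites themselves lay a median of 59 bases upstream of the start in the rn4 annotation. At 44 of the 49 genes the 2 distances differed by at most 50 bases, and the median difference was 8 bases. As the nearest copy was taken and the builds differ, these distances are descriptions.

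**Figure D1:**
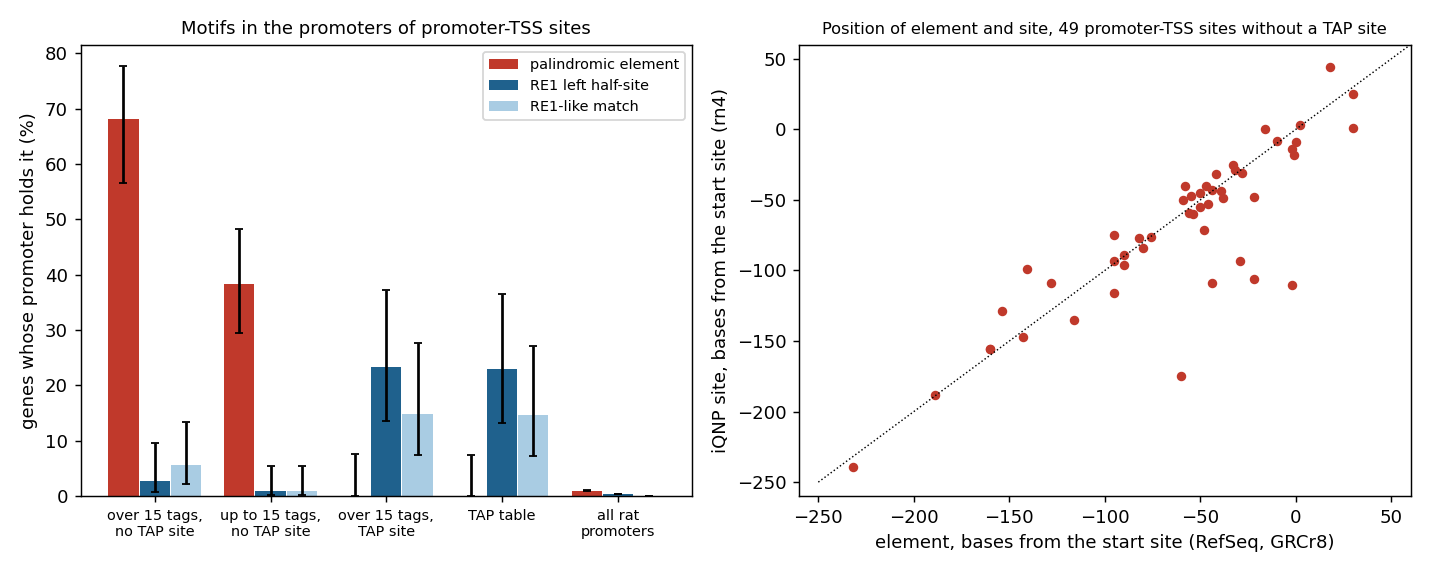
Left, percentage of genes whose RefSeq promoter holds the palindromic element (red), the left half-site of RE1 (dark blue) or an RE1-like match (light blue), for promoter-TSS sites of 4 kinds and for all rat promoters; error bars are Wilson 95% intervals. Right, bases from the start site for the element (x axis) and the iQNP site (y axis) at 49 genes, which lie along the dotted line of equal distance. In the stretch searched, which did not reach every site, the element was present at 68.1% of matched genes of stronger sites without a TAP counterpart. It was present at none of the matched genes of those with one.

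RE1 letters were less frequent in the first set than in the promoters of paired sites, though the left half-site was above its share of all promoters in both. The left half-site TTCAGCACC was found in 2 of 72 promoters (2.78%) of the sites without a counterpart, in 11 of 47 (23.4%) of the paired promoter sites and in 0.404% of all promoters. The right half-site GGACAG, a shorter and more frequent run of letters, was found in 22 of 72 (30.6%), 26 of 47 (55.3%) and 23.3% of all promoters. The left core AGCACC, which is part of the left half-site, was found in 15 of 72 (20.8%), 23 of 47 (48.9%) and 17.7% of all promoters. Within the stretch searched, all 3 were thus less frequent in the first set than in the promoters of paired sites. That stretch did not reach every site and left out more of the paired ones.

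Against the whole element TTCAGCACCNNGGACAGCGCC, in which 19 letters are compared, at least 16 letters matched in 4 of 72 promoters without a counterpart, in 7 of 47 paired promoters and in 23 of all 27457. The shares without and with a counterpart were 5.56% (interval 2.18 to 13.4) and 14.9% (interval 7.41 to 27.7), and these intervals overlap. The 4 without a counterpart are printed because they set a small RE1-like group apart from the rest of the promoters. Matching letters are in capitals on the strand of the match, and Vgf, the paired promoter with the most tags among the 7, is given beside them:
Lhfpl5: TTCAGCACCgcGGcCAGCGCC
Ttc9b: aTCAGCACCggGGACAGCGCg
Celsr3: TTCAGCACCgtGGgCAGCaCt
Scamp5: TctAGCACCctGGACAGCtCC
Vgf: TTCAGCACgctGGACAGCGCC

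The matches lie in GRCr8 at chr20:6633978-6633998 for Lhfpl5, chr1:92081042-92081062 for Ttc9b, chr8:118409017-118409037 for Celsr3 and chr8:66768104-66768124 for Scamp5. Scamp5, a secretory carrier protein of vesicles, held both the palindromic element and an RE1-like match. The letters of 4 other promoter motifs were also searched after the data were seen. The ETS site CCGGAAGT was found in 7 of 72 promoters and in 8.88% of the promoters of high CpG ratio, and the NRF1 half-site GCATGCGC in 7 of 72 and 6.06%. The YY1 letters AAGATGGC were found in 8 of 72 and 5.95%, and the letters CTACAATTC in 1 of 72 and 0.684%. None of these 4 approached the share of the palindromic element. The letters of these motifs do not overlap, both strands were searched, and a match is a description of the letters and not of a bound factor.

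The 82 promoter sites made up 25.5% of the 322 sites (Wilson 95% interval 21 to 30.5). Among paired sites weighted to the same distribution over 6 classes of tags, 7.11% were promoter sites, and 8.85% without weighting. The difference was present in every class of tags, from 26.5% against 6.31% between 15 and 20 tags to 30% against 11.8% over 60 tags. In the class of 20 to 25 tags it was smallest, at 17.6% against 6.11%. Over all classes it was 18.4 percentage points. It was 9.93 points when both tables were cut to sites with a fold over input of 8 or more for each antibody. Counting any site within 1 kb of a start, whatever its annotation, gave a smaller difference of 12.7 points. Such sites were 86 of the 322 (26.7%) and 112 of the paired sites (15.7% without weighting). Seen the other way, 82 of 145 promoter sites over 15 tags had no counterpart (56.6%, interval 48.4 to 64.3), against 31.1% over all sites of that strength.

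Introns held fewer of the sites. They had 59 of the 322 sites (18.3%) and 33.9% of the weighted paired sites. Intergenic sequence held 173 (53.7%), close to the 54.9% of the weighted paired sites. The other annotations held 8 sites in all, of which 3 were 3' UTRs, including those of Egr4, an immediate early transcription factor, and Pou4f3, a transcription factor of hair cells. The sites lay a median of 27.2 kb from the nearest start and the paired sites 36.2 kb, with lower quartiles of 0.518 kb and 4.55 kb.

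The antibodies were balanced differently at the promoter sites. On the log2 scale, commercial over homemade tags had a median of 0.40 over all 1775 iQNP sites, so that the commercial antibody gave more tags at most of them, and the homemade antibody gave more at 1 of the 63 paired promoter sites. At the 82 promoter sites without a counterpart the median ratio was -0.23, against 0.61 at the paired promoter sites. The homemade antibody gave more tags at 62 of the 82 (75.6%, interval 65.3 to 83.6), and at 61 of the 82 when fold over input was compared in place of tags. Of the 82, 73 lay below the median ratio of all sites.

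The ratio also differed within the promoter sites. At the 49 with the palindromic element it had a median of -0.27 and a range of -0.97 to 0.21, and the homemade antibody gave more tags at 45. At the 23 without the element in the stretch searched the median was -0.08 and the homemade antibody gave more at 14. At the 10 that could not be matched to a promoter sequence the median was 0.36. Weaker promoter sites with the element had a median of -0.25, close to that of the stronger ones, so the balance was not limited to sites above the threshold. What the antibodies precipitated at these promoters was not tested here, since no library without REST was analysed. The study itself reported REST binding by ChIP-qPCR at selected iQNP targets, Mms22l among them. At select targets it also reported depleted binding after REST knockdown.

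**Figure D2:**
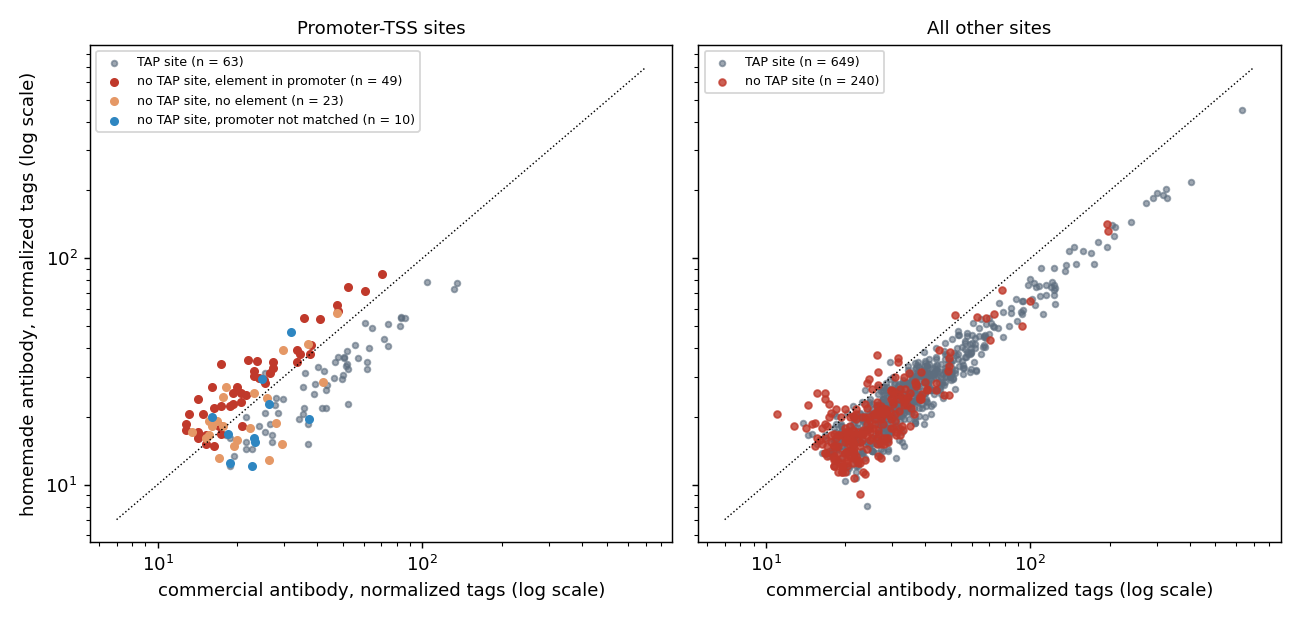
Normalized tags per 10000000 with the commercial (x axis) and homemade antibody (y axis) in iQNP, both on log scales, at promoter-TSS sites (left) and all other sites (right) over 15 tags. Each point is a site, grey with a TAP counterpart and coloured without, and the dotted line marks equal tags. Promoter sites with the palindromic element lie on or above the line at most genes, and paired promoter sites below it at 62 of 63.

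The strongest promoter sites showed the pattern site by site. At LOC687565, annotated as similar to the translation reinitiation factor Denr, the site at chr12:33819786-33819851 (rn4) had 70.2 tags with the commercial and 84.9 with the homemade antibody. At Rbm39, which encodes a splicing factor, the site at chr3:146587746-146587807 had 61 and 71.5 tags. At Mdh2, the mitochondrial malate dehydrogenase, the site at chr12:22034278-22034336 had 52.5 and 74.5. They lay 75, 116 and 53 bases upstream of the start, and the homemade antibody was the higher at each.

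Atp5f1, a subunit of the mitochondrial ATP synthase, had 47.5 tags with the commercial and 62.1 with the homemade antibody at a site on the start itself. Psmd5, a chaperone of proteasome assembly, had 41.1 and 53.7, and Mapk14, the p38 kinase, 35.8 and 54.4. Lamp1, a lysosomal membrane protein, had 38 and 41.6. Cdk12, a kinase of transcription elongation, had 47.5 and 57.1 tags at a site 627 bases upstream. Its promoter stretch did not hold the element, but that stretch did not reach the site. Scamp5 had 48.2 and 58.8 tags, with the highest fold over input of the promoter sites with the element, 146 and 175. Of the 10 sites within 1 kb of a start with the most tags, these 9 had more tags with the homemade antibody. The exception lay in an intron 802 bases past the start of a gene whose name the table holds as a date, with 49 commercial and 31.9 homemade tags.

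Promoter sites of some genes with roles in neurons and sensory cells stood on the other side. Lhfpl5, a component of the hair cell transduction complex, had 26.3 tags with the commercial and 12.8 with the homemade antibody, a log2 ratio of 1.04 and the highest of the 82. Celsr3, a cadherin of axon guidance, had 29.4 and 15.1 (0.96), and Ttc9b, a tetratricopeptide protein, 42.2 and 28.5 (0.57). Rab3c, a GTPase of vesicle release, had 28 and 18.8 (0.57), and Vip, the precursor of vasoactive intestinal peptide, 19.9 and 15.8 (0.33). Like these, the paired promoter sites had ratios above 0, except for 1 of the 63. Their range, -0.29 to 1.29, also held the median of the 82, -0.23, so lying within it does not set these sites apart. Lhfpl5 and Celsr3 were also the only 2 of the 82 promoter sites whose gene had a TAP site elsewhere. The nearest TAP site to that of Celsr3 was 1127.5 bp away and had 83 mean tags.

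Among the 240 sites away from promoters, those in CpG islands were nearer to the promoters in their median balance, but were mixed. The annotation placed 20 of the sites in a CpG island, with a median ratio of -0.13. The homemade antibody gave more tags at 12 (60%, interval 38.7 to 78.1), and this interval includes an even split. The commercial antibody gave more at the other 8, among them sites of Armc8 with 49.7 and 38.6 tags and of Phf21b with 32.3 and 16.5. None of the 24 paired sites in CpG islands had more homemade tags, and their median ratio was 0.59. Ube2d3, a ubiquitin-conjugating enzyme, had 51.8 commercial and 56.4 homemade tags in an island 1159 bases upstream of its start. Eif5, a translation initiation factor, had 24.1 and 28.2 at 1415 bases upstream, and was chosen for mention after its values were seen.

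Outside promoters, CpG islands and repeats the median ratios lay closer to those of the paired sites, while intergenic sites more often had more homemade tags. The 139 intergenic ones had a median ratio of 0.43, against 0.50 for 359 paired sites, and the 53 intronic ones 0.56 against 0.47 for 202. The homemade antibody gave more tags at 12 of the 139 intergenic sites (8.63%, interval 5.01 to 14.5) and at 7 of the 359 paired ones (1.95%, interval 0.948 to 3.97). At the intronic sites it gave more at 1 of 53 and at 5 of the 202 paired ones. Over all 240 sites away from promoters it gave more at 28 (11.7%), against 12 of 649 paired sites (1.85%). The highest ratios of all 322 were at a site assigned to Papd7 with 22.7 and 9.07 tags (1.32), one in an intron of Tmem178b with 23.8 and 11.1 (1.10) and one near Reg3b with 27.3 and 13.1 (1.06). The lowest were at the promoters of Mau2, a cohesin loader, with 17.4 and 34.2 (-0.97) and of Rpp38, a subunit of ribonuclease P, with 16 and 26.9 (-0.75), and near Adnp with 11 and 20.5 (-0.90).

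**Figure D3:**
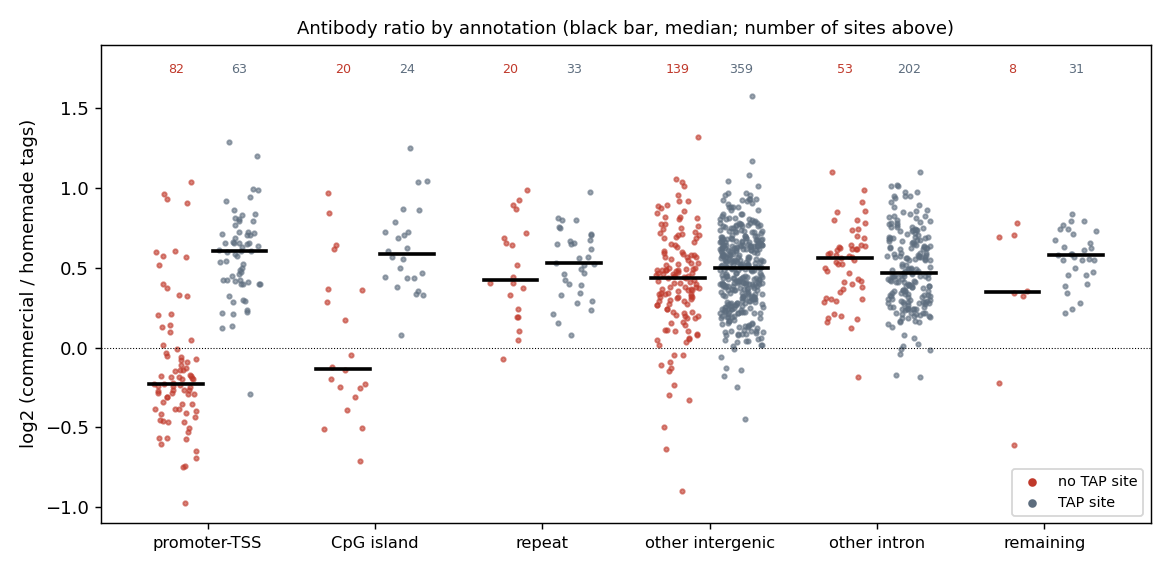
Log2 ratio of commercial to homemade tags (y axis) at each iQNP site over 15 tags by annotation (x axis), red without and grey with a TAP counterpart; black bars are medians and the numbers of sites stand above. The medians without and with a counterpart are -0.23 and 0.61 at promoters and -0.13 and 0.59 in CpG islands, and 0.43 and 0.50 at other intergenic sites.

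Fold over input, the tags of a site divided by those of the input there, was lower at the sites without a counterpart. The medians were 22 with the commercial and 17.8 with the homemade antibody, against 29.6 and 23.7 at the weighted paired sites. On the mean log2 scale of both antibodies the medians were 4.22 and 4.75. This difference of -0.53 was -0.29 when commercial tags alone set the threshold, and -0.23 among sites with a fold of 8 or more in both tables. The promoter sites had medians of 13.7 and 14.7, against 37.9 and 25.1 at paired promoter sites, and their median input of 4.7 scaled tags was above the 2.8 of the paired promoter sites. The plain intergenic and intronic sites had medians of 25.8 and 27.9 with the commercial antibody, against 35.6 and 32.3 at their paired sites. Peak shape hardly differed: the share of tags near the centre had a median of 0.88 with the commercial antibody in both, and the sites were 63 bp wide at the median against 64 bp.

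Sites were less often without a counterpart the stronger they were, but not steadily so at the top. Between 15 and 20 tags, 136 of 247 had none (55.1%, interval 48.8 to 61.1), between 30 and 40 tags 35 of 203 (17.2%), between 40 and 60 tags 13 of 109 (11.9%) and over 60 tags 10 of 78 (12.8%, interval 7.12 to 22). The paired sites show what TAP tags went with such strengths. Their median TAP level was 8.25 tags between 15 and 20 iQNP tags and 48.9 over 60, with the lowest at 5.30 and 14.5, and the lowest TAP level of any called site was 5.30. Paired sites of 15 to 20 tags thus lay close to the lowest TAP level listed, and those over 60 tags did not. TAP tags at the positions of the 322 sites themselves were not analysed here, so the missing counterpart is a missing call and not a measured absence of tags.

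**Figure D4:**
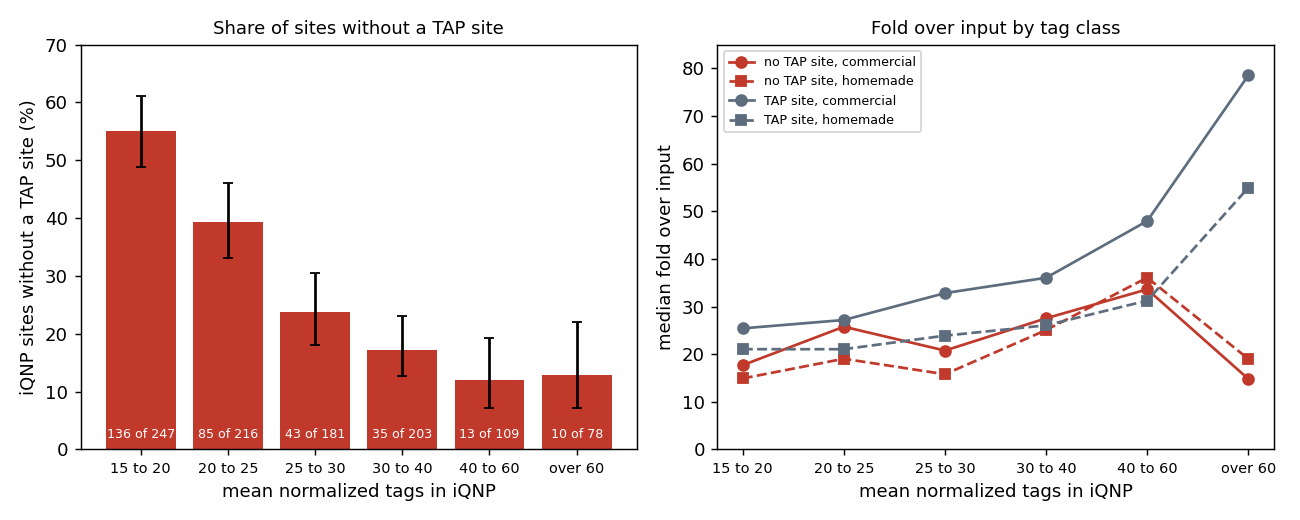
Left, percentage of iQNP sites without a TAP counterpart (y axis) by mean normalized tags per 10000000 in iQNP (x axis), with Wilson 95% intervals and the number of sites in each bar. Right, median fold over input (y axis) in the same classes, red without and grey with a counterpart, circles for the commercial and squares for the homemade antibody. The share falls from 55.1% to 12.8%, and over 60 tags the commercial medians are 14.8 without and 78.5 with a counterpart.

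The 10 sites over 60 tags were of several kinds. The 2 strongest, assigned to the distant genes Cpe and Tll1, lay at chr16:27376659-27376709 with 194 and 142 tags and at chr16:27947439-27947505 with 195.8 and 132. Their input was 98.2 and 64.2 scaled tags, against a median of 2.8 over all sites. Their total tags with the commercial antibody, on the same scale as this input, were 548 and 555. Their fold over input with that antibody was thus 5.58 and 8.64. Trim72 and, with 58.95 mean tags just under this class, tGap1 name sites in ribosomal RNA repeats with inputs of 51 and 32.1 and folds of 4.31 and 5.51. These 4 were the only ones of the 322 with more than 10 times the median input, against 3 paired sites. Armc8, with an input of 26.4 in a CpG island of an intron, was next.

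The other sites over 60 tags did not have such inputs. Sec13 is the nearest gene of a site within another gene's intron at chr4:149775523-149775585 with 99.3 and 64.8 tags and folds of 98.8 and 64.5. Terf2ip, a telomere protein, was assigned an intergenic site 158.6 kb away with 72.7 and 56.7 tags. RGD1562234 had 68.1 and 54.4 tags at its transcript end. Cntn6 was assigned a repeat with 92.9 and 50 tags, and LOC687565, Rbm39 and Mdh2 completed the 10. Below 60 tags, the site with the highest fold over input of all 322, 211.8 with the commercial antibody, was assigned to Cacng5, a calcium channel subunit, with 70.6 and 43.6 tags. Chst1, a sulfotransferase, was assigned an intergenic site with 49.3 and 36.3 tags.

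Repeats held 20 of the 322 sites and 33 of the paired sites. All 4 sites of the iQNP table in ribosomal RNA repeats were among the 322, with commercial folds over input of 4.31 to 5.51. The long terminal repeat RMER21A held 8 of the 322 and 6 paired sites, and its 8 sites had 15.8 to 71.5 mean tags, with commercial folds of 11.7 to 147. Reads of repeats can fit more than one copy, and Bowtie2, which the study ran with its defaults unless noted, by default reports a single placement for such a read. The part of these reads in the values was not tested.

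Only 3 of the 322 had a TAP site within 1 kb, with centres 52.5 to 76 bp apart. Cntn6 and Fam154b, both in RMER21A, had TAP sites at 76 bp and 52.5 bp with 15.6 and 17.9 mean tags against 71.5 and 36 in iQNP. Grk1, a kinase of photoreceptors, had one at 53 bp with 11.2 tags against 23.4. A TAP site lay within 10 kb of 18 of the sites and within 100 kb of 77. The next nearest after 1 kb, at 1062.5 bp, was that of Plcxd3. Without these 3 the count would be 319.

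Some of the genes had a TAP site elsewhere. Of 296 named genes, 69 (23.3%) had a TAP site assigned to the same gene. By site, these were 2 of 82 promoter sites (2.44%, interval 0.671 to 8.46) and 80 of 235 named sites away from promoters (34%, interval 28.3 to 40.3). Among paired sites over 15 tags, a TAP site other than the counterpart was assigned to the same gene at 6 of 62 promoter sites (9.68%, interval 4.51 to 19.5) and at 194 of 642 others (30.2%, interval 26.8 to 33.9). The gap between promoter and other sites was thus present in both. Sites away from promoters went to the nearest gene over a median of 62.8 kb, so a shared gene does not place the sites close together. Npas4, an activity-regulated transcription factor, had a site 2542 bases upstream of its start with 44 and 26.2 tags and a TAP site 3179.5 bp away with 181.8 mean tags. Phf21b, a chromatin factor, had 32.3 and 16.5 tags in an intron, and a TAP site of 161.2 mean tags assigned to it. At these genes the missing counterpart concerned one site, while a strong TAP site was assigned to the same gene.

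The gene groups differed in how often their sites lacked a counterpart. Genes of translation, RNA processing and housekeeping had 26 sites without a counterpart out of 56 over 15 tags (46.4%, interval 34 to 59.3), above the 31.1% of all sites. Of the 26, 12 were promoter sites, and the homemade antibody gave more tags at 10 of these and at 11 of all 26. Beside Psmd5 and the distant sites assigned to Sec13 and Hspb8, the 26 included ribosomal proteins. Rps28 had 33.7 and 34.9 tags, Rps19 24.1 and 29.5, Rpl26 19.2 and 22.8 and Rpl10a 17.4 and 16.8, with the element at all 4 promoters. Of these, Rps28 was chosen for mention after its values were seen, and the others are on a list of 31 iQNP targets, those named in a functional table of the study and not its whole target list, which the study chose on these data and which is no independent evidence. Of the 31 genes, 17 had an iQNP site over 15 tags, and these were 18 sites, of which 9 had no counterpart (50%, interval 29 to 71, against 31.1% of all sites). They belonged to 8 genes, the others being Dctn2, Qtrt1, Scn3b, Cxcl11 and Mms22l. The other 9 of the 17 genes had paired sites.

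The neuronal groups were more often paired. Neurotransmitter and neuropeptide receptors had 6 of 48 sites without a counterpart (12.5%, interval 5.86 to 24.7), vesicle and secretory granule genes 11 of 69 (15.9%) and ion channels 10 of 56 (17.9%). No site of these channel and receptor groups was at a promoter, and all had more commercial tags. The groups did not include Vdac3, an anion channel, or Tas1r1, a taste receptor. Both had promoter sites with more homemade tags, 24.8 commercial against 29.2 homemade and 16.7 against 19.1. Scn2a1, a voltage-gated sodium channel, had 40.1 and 28.5 tags 1119 bases upstream of its start, and Scn3b, an accessory sodium channel subunit, 26.3 and 23.2 in an intron. Gpr139 had 27.3 and 21.2, and the galanin receptor Galr1 28 and 15.1. Unc13a, which primes vesicles for release, was assigned an intergenic site with 38.7 and 31.6 tags.

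Adhesion and guidance genes had 16 of 56 (28.6%), transcription factors 16 of 54 (29.6%), microRNAs 6 of 22 (27.3%) and cytoskeletal and transport genes 8 of 30 (26.7%), all near the 31.1% of all sites. Nfasc, a neurofascin of the axon initial segment, had 34.1 and 22.5 tags, and Lrfn3, a synaptic adhesion protein, 33 and 17.5. Dctn2, a dynactin subunit, had 37.6 and 37.9 at its promoter, Kif5a, a kinesin, 40.8 and 26.5 in its first intron, and Crmp1, a regulator of axon growth, 38.7 and 23.8. Among transcription factors, Atf2 had 25.5 and 28.2 at a promoter with the element and Neurod4 25.9 and 24.2 at a promoter without it. The factor genes thus held sites of both sets.

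The 6 sites of microRNA genes were all away from promoters and all had more commercial tags. The site assigned to Mir124-1, a neuronal microRNA and a known REST target, lay 22.9 kb from it at chr15:43921624-43921704 with 49.3 and 33.6 tags. Mir124-3 was assigned 2 sites, with 29.4 and 21.2 and with 22.7 and 12.4 tags. Mir30d had 31.9 and 23.8, Mir708 31.9 and 21.2 and Mir346, in an intron of a host gene, 21.3 and 15.1. TAP sites lay 24706 bp from the site of Mir124-1 and 9487 bp from the nearer one of Mir124-3.

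**Figure D5:**
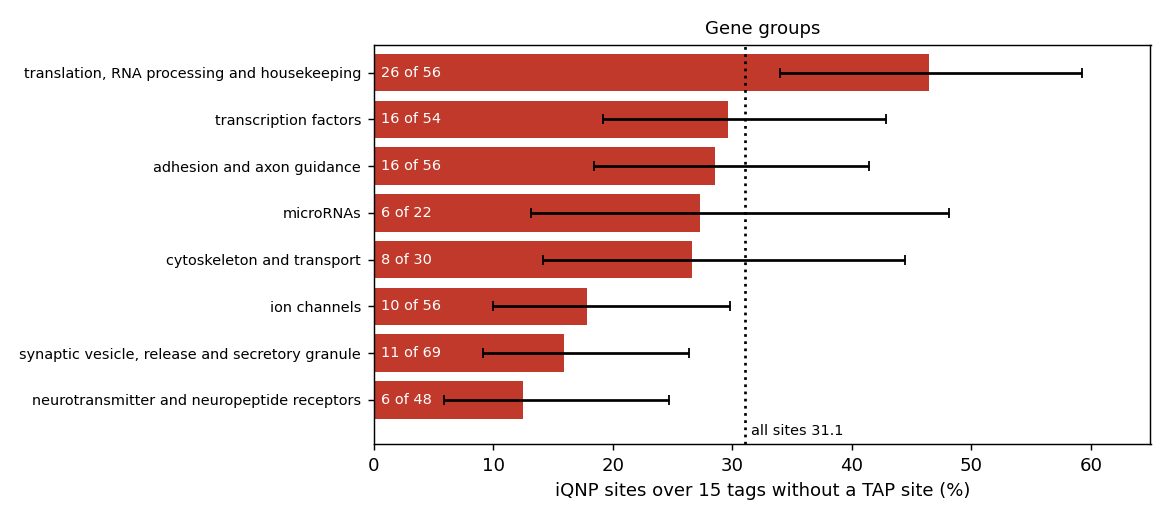
Percentage of iQNP sites over 15 tags without a TAP counterpart (x axis) for 8 groups of genes (y axis), with the counts in the bars, Wilson 95% intervals and a dotted line at the 31.1% of all sites. Translation, RNA processing and housekeeping genes stand at 46.4% and neurotransmitter and neuropeptide receptors at 12.5%.

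Several genes were assigned more than one site. Hspb8, a small heat shock protein, was the nearest gene of 4 intergenic sites between 113.6 and 321.4 kb upstream, with 15.9 to 36.1 mean tags. Kcnk9, a potassium channel, was assigned 3 with 15.6 to 24.6 tags, from 97.8 to 700.8 kb from its start. Another 16 genes had 2 each, among them the synaptic adhesion gene Nrxn3 with 25.2 and 16.1 and with 20.9 and 13.4 tags. Mad1l1, a spindle checkpoint protein, and Mms22l, a DNA repair protein, each had one promoter and one distant site. At both genes the promoter site had more homemade tags (39.3 against 33.7, and 16.8 against 14.2) and the distant site more commercial tags (32.6 against 18.1, and 21.6 against 13.1). At these 2 genes the balance of the antibodies thus went with the place of the site, though the distant site of Mms22l lay 349355 bases from its start. Slc5a11 also had a promoter site among its 2 sites, and that one had more commercial tags (26.3 against 22.8).

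The threshold of 15 tags was no natural break. Just inside it were sites of Usp31 and Clptm1 with 15.05 mean tags each, and one of Dync1i1 with 15.1. Just outside were those of Kcnh1 and Synj1 with 15 and of Brf1 with 14.95. Both sides held promoter sites with and without more homemade tags: Clptm1 had 17 commercial and 13.1 homemade tags, and Brf1 13.1 and 16.8.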

How the data were processed

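REST ChIP-seq of HCN cells comprised 2 antibodies and 1 input in each of 2 growth conditions. Per the submitters' processing notes, reads were placed on rn4 with Bowtie2 and peaks were called with HOMER, whose versions are not given in the sources used here. The authors deposited 1 table per condition of peaks called with both antibodies, holding total tag counts, normalized tags and scaled input tags (signal per 10000000 tags), focus ratios (a fraction), the ratio or fold over input and over local background, and the p-value against input, all at or below 1e-04. Scores and local p-values, 8 columns in all, were not used. Column blocks were matched to antibodies by library number, a match that the values do not check. Annotation, nearest gene and distance came from the study's annotation table, which all 322 sites joined.

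The authors' mean of normalized tags (over 15) and one-to-one pairing of centres within 50 bp chose the sites. Paired sites were weighted to the same counts in 6 tag classes. Each antibody was sequenced once per condition, and nothing says that libraries came from separate cultures. No test was run, because the rule used these values, and Wilson 95% intervals cover counting error only. Sites named were the 20 strongest, the 10 strongest within 1 kb of a start, up to 3 per gene group, the 3 highest and 3 lowest antibody ratios, the 3 highest inputs, microRNAs, sites with a TAP site within 1 kb, genes with 2 or more sites and the neighbours of the threshold, and others as stated, among them promoter sites shown for their sequence or as contrasts in antibody ratio. Sites, lists, gene groups and motifs were chosen with earlier results of these data known. Promoter sequences are RefSeq's (GRCr8), and all 1947 overlapping pairs of promoters on opposite strands were reverse complements. Thresholds, pairing distances, filters and single antibodies were varied. The pairing was tested on simulated data. Python 3 with pandas and scipy was used.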

Additional observations from a re-analysis of the deposited data

How the results depend on the processing

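No paired analysis was possible because the results come from no test, and the number shared across conditions marks the antibody, with 1 library for each. Of 134 values under alternatives, for 12 results, 97 moved by less than the spread used as error, 36 moved by more and 1 changed sign. The error was the Wilson interval for shares, an order-statistic interval for the median antibody ratio and the SD between antibodies for fold and input. The SD between antibodies is small, so fold and input moved often. Alternatives that leave out sites of high input, use another motif definition or compare the promoter antibody counts were added after seeing the data.

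A threshold of 20 tags left 186 sites, of which 84.8% of the promoter sites had more homemade tags. The median scaled input was 3.15, 2.90 at 12 tags, 3.90 at 20 tags, and 2.90 with centres within 100, 200 or 1000 bp, with p at most 1e-10, with fold of at least 8 or without high-input sites. The difference from paired sites in median log2 fold over input was -0.53. It was -0.28 at 12 tags, -0.39 at 20 tags, -0.47 with p at most 1e-10, -0.23 with fold of at least 8, -0.71 with no weighting, -0.51 with the nearest paired site and -0.51 without high-input sites. With p at most 1e-10 in both tables, the difference in intergenic share changed from -1.17 to 0.918 percentage points and that in median antibody ratio from -0.14 to -0.067.

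Keeping in both tables only sites at which each antibody gave 8 times the input or more changed most results. The promoter share fell to 17.0% and its difference from paired sites to 9.93 points, the median fold rose to 24.4, the median antibody ratio to 0.41 and its difference to -0.040, and 63.9% of promoter sites had more homemade tags. The cause was not tested. Of the promoter sites 89.0% lay below the all-site median ratio, and 52.8% of matched promoters held the whole palindrome.

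With 1 antibody alone against the threshold, the number of sites ranged from 277 to 379, the promoter share from 20.3% (commercial) to 31.4% (homemade), and its difference from 13.7 to 23.2 points. The median antibody ratio ranged from 0.21 to 0.41, its difference from -0.28 to -0.00295, the log2 fold difference from -0.47 to -0.29, the input from 2.80 to 3 tags and the share of promoter sites with more homemade tags from 68.8% to 83.9%. The difference in antibody ratio over all sites was thus nearly absent when commercial tags alone set the threshold, while the promoter share was above that of paired sites with each antibody and every alternative run. Each antibody was sequenced once per condition, and growth condition cannot be told apart from differences between these libraries.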
